A study of Homo sapiens with 29 samples.

Results

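DKK4 encodes Dickkopf-4, a secreted inhibitor of Wnt signalling, and was followed through a time course of HepG2 cells with and without CCL. Among 53617 probe sets on the array, 1 carries the gene symbol DKK4 in the probe table, and it was measured on all 29 arrays. The gene was chosen by its measured differences between CCL-treated and untreated arrays, higher early and lower late, so its levels and differences are given here as a description, without a test.

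HepG2 is a widely used human hepatoma line, and CCL is the submitters' abbreviation for the herb Cratoxylum cochinchinense Lour. The series asks how gene expression changed among time points in treated and untreated cells. CCL-treated cells were harvested at 6, 12 and 18 h (3 arrays each) and at 24 and 48 h (2 arrays each). Untreated cells were harvested at 0 h (2 arrays), 6 and 12 h (3 each), 18 h (2), 24 h (3) and 48 h (3). No dose and no vehicle is named, so an effect of CCL cannot be told apart from one of a solvent or of handling. All groups share the same line, and nothing says whether the arrays of a group, numbered as sets 1 to 3, came from separate cultures.

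Canonical Wnt signalling begins when a Wnt ligand joins a Frizzled receptor to the co-receptor LRP5 or LRP6, which leads to stabilisation of beta-catenin and to transcription through TCF and LEF factors. Dickkopf proteins occupy LRP5 and LRP6 and so keep the ligand from assembling this complex, and Kremen proteins can serve as their receptors. DKK4 is known as a target of beta-catenin and TCF as well as an inhibitor of the pathway, and thyroid hormone has been described to raise it in hepatoma cells. HepG2 cells carry a CTNNB1 allele with a deletion that stabilises beta-catenin, downstream of the step at which Dickkopf proteins act.

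The median log2 value of an array ran from 2.29 to 3.39, the 6 arrays of 12 h lay at 2.51 to 2.54, and the lowest was untreated 18 h set 1. The arrays were thus not all on 1 scale, and values after quantile normalization are given beside the deposited ones where the difference matters. The median CCL difference of all 6529 tested genes was 0.41 at 18 h and -0.26 at 48 h on deposited values, and 0.00 and -0.05 after quantile normalization. The hepatocyte genes ALB and APOB were measured at 11.75 to 12.11 and at 11.28 to 11.93 over all arrays, and AFP at 10.09 to 11.06. The other 2 tested hepatocyte markers differed between the arms: over the mean of the 5 times TTR was lower with CCL by 0.43 ± 0.13 and APOA1 by 0.39 ± 0.14 (limma, adjusted p = 0.0197 and 0.04). At 48 h TTR was lower with CCL by 1.12 ± 0.31 (adjusted p = 0.0341), beside the lower DKK4. Between 48 h and 6 h TTR differed by 0.78 ± 0.28 in untreated cells and by -0.44 ± 0.31 in CCL-treated cells, and neither was called. The part of these genes in the DKK4 result was not tested. The endothelial markers PECAM1 and KDR did not exceed 3.57 and 2.83, while LYZ, listed as a leukocyte marker, lay at 10.25 to 10.95 in both arms alike (48 h difference -0.02 ± 0.19, SE). Precision is limited by how few arrays each group holds.

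DKK4 stood on opposite sides of the untreated level early and late in the time course. At 6 h it was 1.56-fold higher with CCL, at 12 h the arms overlapped, and at 48 h it was at 0.205 of the untreated level. The untreated culture held a large part of that contrast, since DKK4 was higher there at 48 h than at 6 h, while in CCL-treated cells it was lower at 48 h than at 6 h.

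At 6 h, DKK4 measured 4.31, 4.70 and 4.28 (log2, sets 1 to 3) in CCL-treated cells, against 4.03, 3.88 and 3.46 in untreated cells. All 3 CCL arrays lay above all 3 untreated arrays, although the gap between the lowest CCL and the highest untreated array was smaller than the range within either arm. The means were 4.43 ± 0.24 with CCL and 3.79 ± 0.29 in untreated cells (SD, n = 3 each). The log2 difference was 0.64 ± 0.30 (SE from a linear model over all 29 arrays, fitted with limma), or 0.75 after quantile normalization. Within sets 1, 2 and 3 the CCL-minus-untreated difference was 0.28, 0.82 and 0.82. Among the tested genes, 6.23% had all CCL arrays above all untreated arrays at this time.

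The untreated 0 h arrays help to place the 6 h values. DKK4 lay at 4.11 and 4.06 at 0 h (sets 1 and 3), below all CCL arrays of 6 h and above all untreated arrays of 6 h on deposited values. After quantile normalization the untreated arrays of 0 h and 6 h overlapped. Relative to the 0 h mean, DKK4 at 6 h was 0.34 higher in CCL-treated cells and 0.29 lower in untreated cells (-0.29 as a log2 difference). After quantile normalization these differences from 0 h were 0.54 and -0.22. The early contrast between the arms was thus made of a higher value with CCL and a lower value without it, each within the pooled SD of 0.386 on deposited values. After quantile normalization the value with CCL was above 0 h by more than the pooled SD of 0.371.

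At 12 h, DKK4 measured 3.76, 4.42 and 3.43 in CCL-treated cells, against 3.83, 3.92 and 3.82 in untreated cells. The CCL arrays spread on both sides of the tightly grouped untreated arrays. Means were 3.87 ± 0.50 with CCL and 3.86 ± 0.05 without (SD, n = 3 each), and the log2 difference was 0.01 ± 0.30 (SE). Its sign turned on 1 array, since the difference was -0.26 without CCL set 2, the highest array, and 0.23 without CCL set 3, the lowest. The 12 h arrays had low medians, and quantile normalization placed both arms higher, at 4.26 with CCL and 4.21 in untreated cells, without parting them.

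At 18 h, DKK4 measured 3.64, 3.18 and 3.75 in CCL-treated cells, against 4.41 and 4.50 in untreated cells (sets 1 and 3). From here on every CCL array lay below every untreated array of its time. The means were 3.52 ± 0.30 with CCL (SD, n = 3) and 4.46 ± 0.06 in untreated cells (SD, n = 2). The log2 difference was -0.94 ± 0.33 (SE), while the median of all tested genes was higher with CCL at this time, and quantile normalization widened it to -1.45. Untreated set 1, whose array median was the lowest of all, went to 5.01 after quantile normalization, against 4.33 for set 3. On deposited values, 2.56% of tested genes had all CCL arrays below all untreated arrays at 18 h. The higher median with CCL leaves fewer genes below, and this share was not computed after quantile normalization.

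At 24 h, DKK4 measured 3.17 and 3.19 in CCL-treated cells (sets 1 and 2), against 3.68, 4.36 and 5.40 in untreated cells (sets 1 to 3). The CCL arrays were nearly equal, while the untreated arrays spread more widely than in any other group. The means were 3.18 ± 0.01 with CCL (SD, n = 2) and 4.48 ± 0.87 in untreated cells (SD, n = 3). The log2 difference was -1.30 ± 0.33 (SE, from a spread pooled over all groups, which is smaller than that of the untreated 24 h arrays). It was -0.84 without untreated set 3 and -1.70 without untreated set 1. Within sets 1 and 2 it was -0.51 and -1.17, and set 3 has no CCL array at this time. The share of tested genes with all CCL arrays below all untreated arrays was 5.39%.

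At 48 h, DKK4 measured 3.07 and 3.48 in CCL-treated cells (sets 1 and 2), against 5.35, 5.51 and 5.83 in untreated cells (sets 1 to 3). The arms lay far apart, and the highest CCL array was below the lowest untreated array by more than the range within either arm. The means were 3.27 ± 0.28 with CCL (SD, n = 2) and 5.56 ± 0.24 in untreated cells (SD, n = 3). The log2 difference was -2.29 ± 0.33 (SE), with -2.28 within set 1 and -2.03 within set 2, and -2.15 after quantile normalization. Leaving out any 1 of the 5 arrays kept it between -2.49 and -2.09. At 48 h, 29.5% of tested genes had all CCL arrays below all untreated arrays, so that separation alone is common at this time, and the median of all tested genes was itself lower with CCL.

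**Figure D1:**
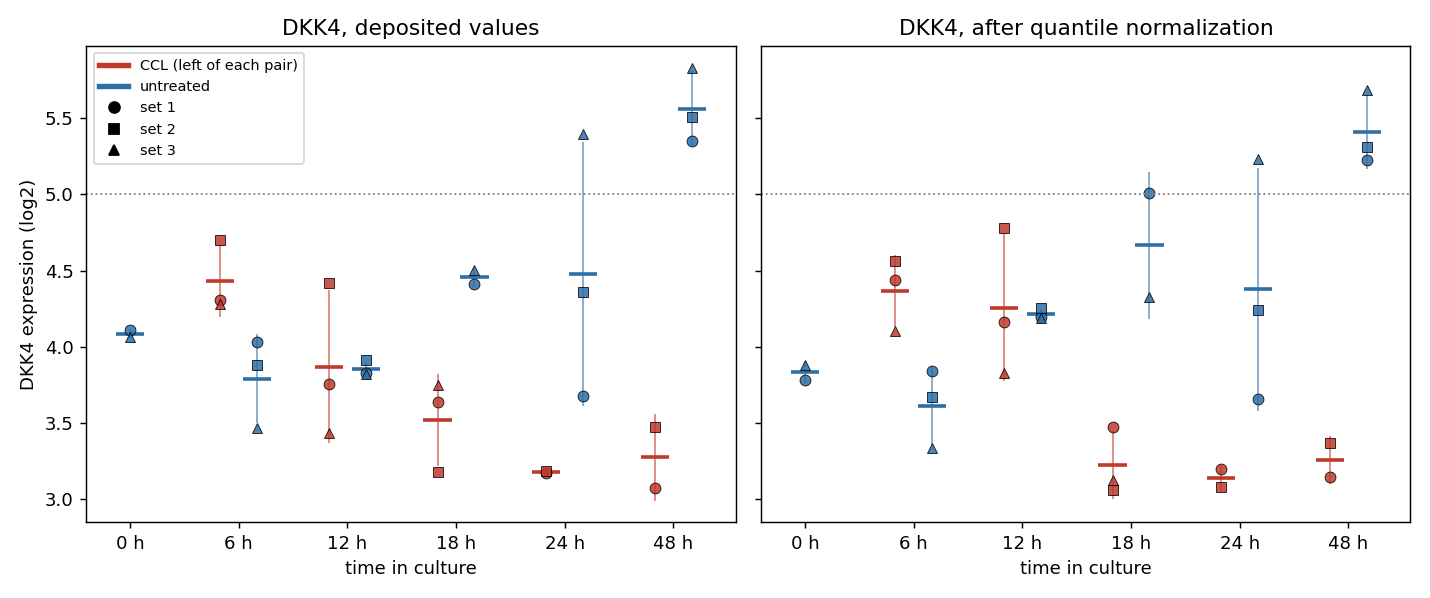
DKK4 expression (log2, vertical axis) on each array by time in culture, with CCL arrays in red left of untreated arrays in blue, horizontal bars for group means and vertical lines for ± 1 SD. Untreated cells at 48 h (5.35 to 5.83) stand above the log2 5 line used as a filter, while CCL arrays from 18 h on stay at 3.75 or below, and the panel on the right shows the same after quantile normalization.

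**Figure D2:**
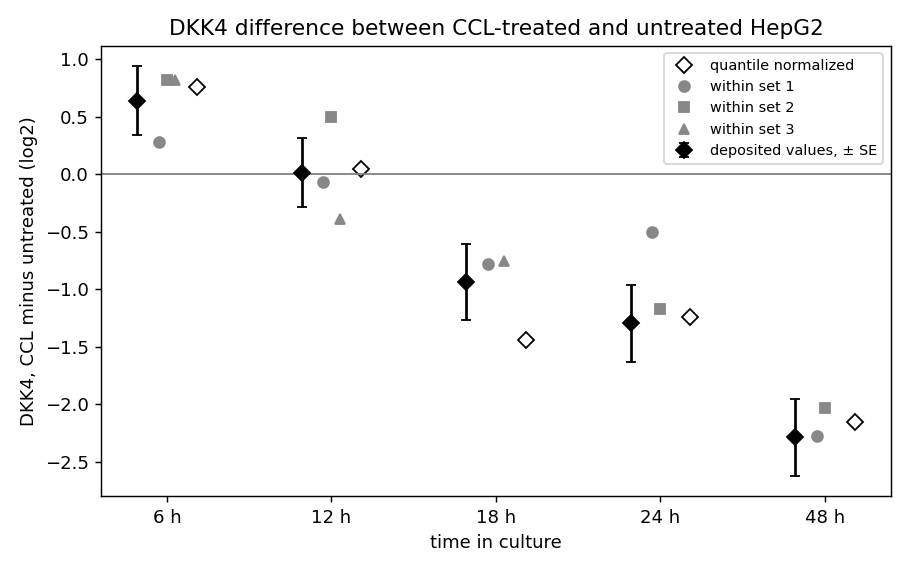
DKK4 difference, CCL minus untreated (log2, vertical axis), by time in culture, as the difference of group means ± SE (filled diamonds), after quantile normalization (open diamonds) and within each set (grey). The difference goes from 0.64 at 6 h through 0.01 at 12 h to -2.29 at 48 h, and all within-set values are above 0 at 6 h and below 0 from 18 h on.

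The difference at 48 h minus that at 6 h was -2.93 ± 0.45 on the log2 scale (SE), and -2.91 after quantile normalization. It was made up of both arms. In CCL-treated cells, DKK4 at 48 h minus 6 h was -1.16 ± 0.33 (SE), and in untreated cells it was 1.77 ± 0.30 (SE), a 3.41-fold higher level at 48 h. Leaving out any 1 of the 11 arrays of 6 h and 48 h kept the difference between -3.13 and -2.73.

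Measured from untreated 0 h, the arms lay apart at 6 h, met at 12 h and lay apart in the opposite order from 18 h on. In CCL-treated cells DKK4 differed from 0 h by 0.34, -0.22, -0.57, -0.91 and -0.81 at 6, 12, 18, 24 and 48 h. In untreated cells it differed from 0 h by -0.29, -0.23, 0.37, 0.39 and 1.48 at the same times. The late gap therefore held both a lower level with CCL than at 0 h and a higher level without it, and at 48 h the second was the larger. The 12 h values depended on the scale: with CCL the difference from 0 h was -0.22 on deposited values and 0.43 after quantile normalization, and in untreated cells it was -0.23 and 0.38. At 18 h the differences from 0 h after quantile normalization were -0.61 with CCL and 0.84 in untreated cells. Which arm held the larger part of the 18 h gap thus changed with the scale. Since arrays were taken from bulk RNA, fewer cells that express DKK4 and less DKK4 RNA per cell cannot be told apart.

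Ordered by mean level, DKK4 was lowest in CCL-treated cells at 24 h (3.18), 48 h (3.27) and 18 h (3.52). Next came untreated cells at 6 h (3.79) and 12 h (3.86), CCL-treated cells at 12 h (3.87) and untreated cells at 0 h (4.09). CCL-treated cells at 6 h (4.43) and untreated cells at 18 h (4.46) and 24 h (4.48) followed, and untreated cells at 48 h (5.56) were the highest. Of the 10 neighbouring pairs in this order, 9 differed by less than the pooled SD of 0.386. Only the last step, from untreated 24 h to untreated 48 h, was larger (1.09), and even there arrays overlapped, because untreated 24 h set 3 at 5.40 lay within the 48 h range. After quantile normalization the extremes were the same groups, and the step below untreated 48 h was 0.74, with no overlap between that group and untreated 18 h.

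The level of DKK4 was low on this array. It exceeded log2 5 on 4 of the 29 arrays, namely all 3 untreated arrays of 48 h and untreated 24 h set 3, and passed the filter on low values only through them. No CCL array reached that limit. No detection call was used here, so whether the late CCL values near 3.2 stand above the array's background is unknown. The fold at 48 h could be larger than measured. The arrays of 6 h (3.465 to 4.702 over both arms) also lay below log2 5, so the early difference was measured wholly in this low range.

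Among the other Dickkopf genes, DKK1 was the 1 of 4 that passed the filter. DKK1, which like DKK4 blocks LRP5 and LRP6, measured 7.80, 7.89 and 7.95 at 6 h in CCL-treated cells, against 6.85, 7.12 and 6.03 in untreated cells. As with DKK4, and with 6.23% of all tested genes, all CCL arrays lay above all untreated arrays at 6 h. The log2 difference of DKK1, 1.21 ± 0.49 (SE), was not called (limma, adjusted p = 0.444). At 48 h the difference of DKK1 was -0.22 ± 0.55 (adjusted p = 0.825), beside -2.29 ± 0.33 for DKK4. DKK1 arrays at 48 h measured 7.02 and 6.21 with CCL and 7.02, 7.48 and 6.01 in untreated cells, so that the arms overlapped. DKK2, DKK3 and the more distant DKKL1 stayed at or below 3.83 on every array and were not tested.

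Transcripts for the receptors of Dickkopf-4 were measured too. From here on, rose and fell mean higher and lower with CCL than in untreated cells of the same time. LRP5, a co-receptor of Wnt ligands, rose over the mean of the 5 times by 0.67 ± 0.11 (limma, adjusted p = 0.000111), while its relative LRP6 differed by -0.24 ± 0.13 and was not called (adjusted p = 0.192), although it was after quantile normalization (-0.27, adjusted p = 0.0218). KREMEN1, a Dickkopf receptor, fell by 0.33 ± 0.12 (adjusted p = 0.0406), a call lost in 15 of 27 models that left out 1 array (adjusted p up to 0.162). KREMEN2 was not called (0.15 ± 0.15, adjusted p = 0.487). In the same mean DKK4 differed by -0.77 ± 0.14, and no test is given for it.

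**Figure D3:**
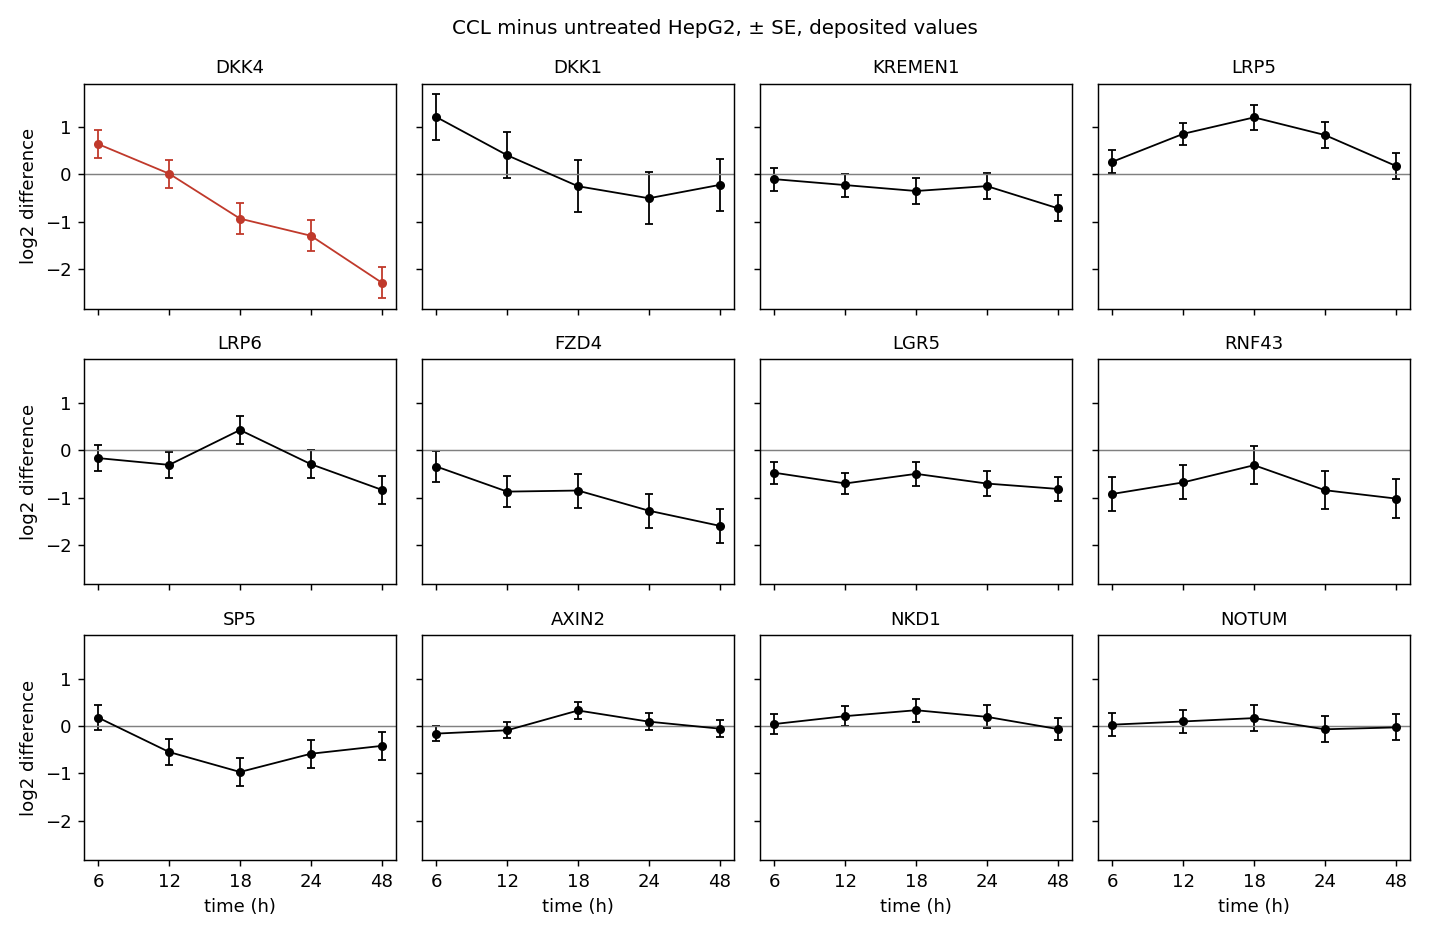
Log2 difference, CCL minus untreated ± SE (vertical axis), at 6, 12, 18, 24 and 48 h for DKK4 (red) and 11 other Wnt pathway genes (black), on deposited values. DKK4 runs from 0.64 at 6 h to -2.29 at 48 h, while AXIN2, NKD1 and NOTUM stay between -0.16 and 0.34 at all 5 times. LGR5 and RNF43 lie between -1.02 and -0.32 at all 5 times.

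Across the pathway beyond DKK4, 125 genes were listed, 80 had a named probe set and 42 passed the filter. CTNNB1, TCF7, TCF7L1, TCF7L2, DVL1, DVL2 and DVL3 had none, so core members of the pathway are not among the 42. Over the mean of the 5 times, limma called 8 of these 42 higher and 8 lower, 38.1% in all, beside 24.6% of all tested genes (13.6% higher and 11% lower). The median difference of the 42 was -0.02, against 0.01 for all tested genes. The pathway genes did not share 1 direction. Besides KREMEN1, those called lower were FZD4, FZD3, FZD6, LGR5, RNF43, AMER1 and SP5. FZD4, a Frizzled receptor, fell by 0.99 ± 0.15 (adjusted p = 3.375e-05) and FZD3 by 0.69 ± 0.16. FZD6 fell by 0.30 ± 0.11, a call lost in 17 of 27 models that left out 1 array (adjusted p up to 0.169). LGR5, the R-spondin receptor and itself a Wnt target, fell by 0.64 ± 0.11 (adjusted p = 0.000112). RNF43, which removes Frizzled from the surface, fell by 0.76 ± 0.17, AMER1, a partner of APC and axin, by 0.47 ± 0.12 and SP5, a Wnt-induced repressor, by 0.47 ± 0.13. The signal of AMER1 (4.195 to 5.527 over all arrays) and FZD3 (3.401 to 5.785) lay around the filter limit of log2 5.

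Called higher in the same mean, opposite to DKK4, were the scaffold AXIN1 (0.61 ± 0.09, adjusted p = 3.002e-05), the co-activator gene BCL9L (0.29 ± 0.09) and the secreted inhibitor IGFBP4 (0.49 ± 0.11). The other 4, besides LRP5, were listed as Wnt targets but also answer to many other signals: FOSL1 (1.67 ± 0.18), JUN (1.02 ± 0.17), TBX3 (0.73 ± 0.12) and MYC (0.48 ± 0.12). AXIN2, NKD1 and NOTUM are feedback inhibitors that beta-catenin and TCF induce as they do DKK4. They were not called (0.02 ± 0.08, 0.14 ± 0.10 and 0.04 ± 0.12, limma, adjusted p = 0.857, 0.336 and 0.841). RNF43 and the Wnt-induced LGR5 and SP5 were called lower in the same mean, as given above, in the direction of DKK4. At 48 h, where DKK4 differed by -2.29, AXIN2 differed by -0.05 ± 0.19, NKD1 by -0.06 ± 0.24 and NOTUM by -0.03 ± 0.28. RNF43, LGR5 and SP5 differed by -1.02 ± 0.40, -0.82 ± 0.26 and -0.42 ± 0.30 at 48 h. On deposited values none of these was called there (limma, adjusted p = 0.113, 0.0534 and 0.378).

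**Figure D4:**
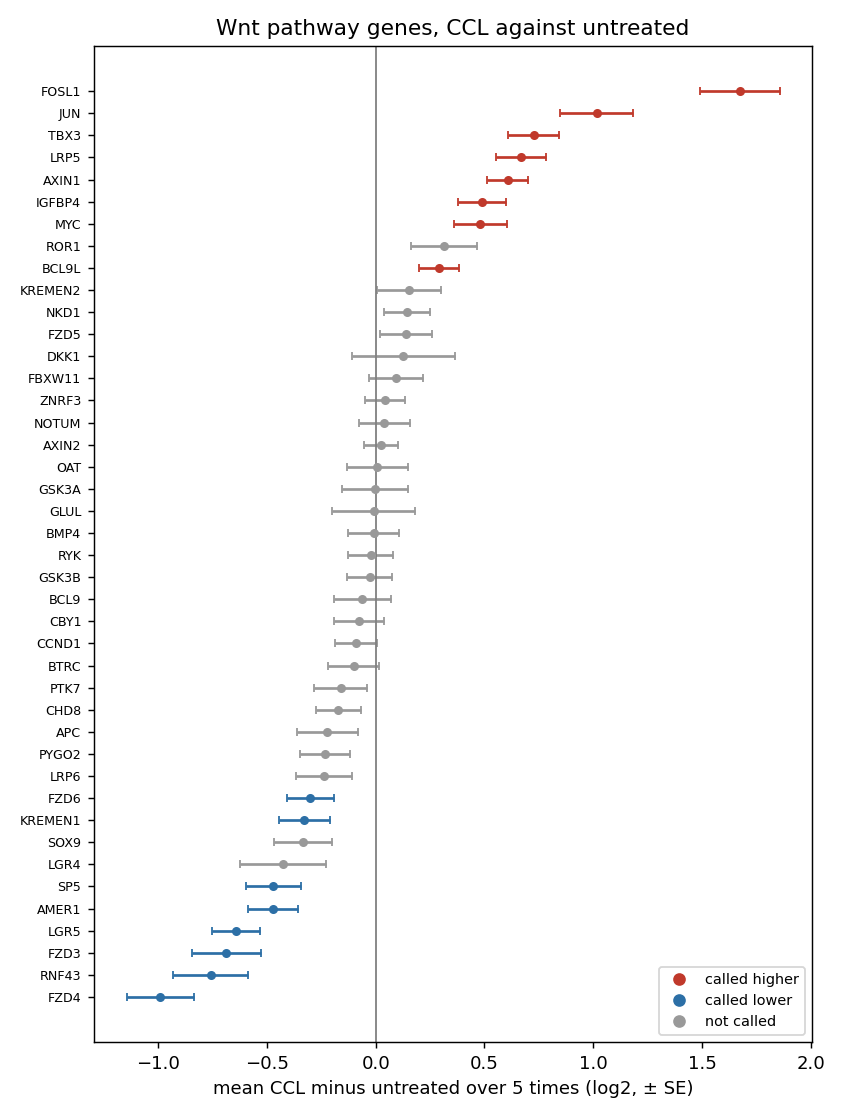
Mean log2 difference over 5 times, CCL minus untreated ± SE (horizontal axis), for the 42 tested Wnt pathway genes other than DKK4, red where called higher, blue where called lower and grey where not called. The 8 genes called higher run from BCL9L (0.29) to FOSL1 (1.67) and the 8 called lower from FZD6 (-0.30) to FZD4 (-0.99).

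At single times few pathway genes were called beside DKK4. At 6 h, when DKK4 was higher with CCL, limma called 0 of 42 (0.306% of all tested genes called). FOSL1 was the 1 called at 12 h (1.82 ± 0.38, 1.24% of all tested genes called), and it lost the call without untreated set 1 or 3 or CCL set 2 or 3. At 18 h, SP5 fell and LRP5, AXIN1, JUN, FOSL1 and TBX3 rose, 14.3% of the 42 beside 12.5% of all tested genes, and none of these calls held without untreated set 1. After quantile normalization JUN and TBX3 were not called (adjusted p = 0.208 and 0.0615), while KREMEN1, FZD4 and LGR5 were called lower with SP5, so that 5 higher and 1 lower became 3 higher and 4 lower. At 24 h, FZD4 fell by 1.28 ± 0.36 and FOSL1 rose by 1.69 ± 0.43 (3.02% of all tested genes called). Both calls were lost in 4 of 5 models that left out 1 array, FZD4 keeping it without CCL set 2 and FOSL1 without untreated set 3.

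At 48 h, where DKK4 was furthest below untreated cells, FZD4 fell by 1.60 ± 0.36 (adjusted p = 0.0121), FZD3 by 1.26 ± 0.37 and CHD8, encoding a chromatin remodeller that binds beta-catenin, by 0.78 ± 0.24. These were 7.14% of the 42 beside 6.56% of all tested genes. FZD3 and CHD8 lost the call when any 1 untreated array of 48 h was left out, while FZD4 kept it. Without CCL set 1 the differences of FZD4, FZD3 and CHD8 were -0.89, -0.38 and -0.27. After quantile normalization LGR5 was called lower as well and AXIN1 and FOSL1 higher, so that 0 higher and 3 lower became 2 higher and 4 lower. FZD4 at this time measured 5.64 and 7.07 with CCL, against 7.89, 7.95 and 8.03 in untreated cells. For the difference between the effects at 48 h and 6 h limma called 0 of 42 genes (0.0153% of all tested genes called). That difference was -1.25 ± 0.48 for FZD4 and -1.43 ± 0.74 for DKK1, against -2.93 ± 0.45 for DKK4. Between 48 h and 6 h, limma called 0 of 42 in CCL-treated cells (1.07% of all tested genes called). In untreated cells it called 0 of 42 (0.0153% of all tested genes called). The tested genes include DKK4, for which no test is given, so a share of 0.0153% (1 gene) is no background independent of it.

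Of the genes linked to thyroid hormone, KLF9, a target of its receptor, was the 1 that could be tested. It was higher with CCL at 6 h by 0.70 ± 0.25 and by 0.01 ± 0.28 at 48 h, and was called at neither time (limma, adjusted p = 0.325 and 0.98). The gene next to DKK4 in the reference annotation (GRCh38.p14), VDAC3, which encodes a channel of the outer mitochondrial membrane, was the 1 tested of the 3 annotated protein-coding genes on each side. VDAC3 differed by -0.10 ± 0.18 at 6 h and by -0.46 ± 0.20 at 48 h, and was called at neither time (adjusted p = 0.996 and 0.158).

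The genes whose pattern was most like that of DKK4 were found by Pearson's r over the 11 group means after quantile normalization, among 6528 other genes. These means share arrays and normalization, so r is a description only. The highest were SDF2L1 (r = 0.881), ITM2C (0.877), AKIRIN1 (0.857), PRRC1 (0.857), FGA (0.848) and AMER1 (0.839). On deposited values r with DKK4 was 0.850, 0.707, 0.693, 0.708, 0.889 and 0.798 for the same genes. SDF2L1 encodes a component of the endoplasmic reticulum chaperone machinery, FGA the fibrinogen alpha chain, and AMER1 was met above among the pathway genes. Their log2 differences at 48 h ran from -0.93 ± 0.27 for SDF2L1 to -0.46 ± 0.30 for PRRC1, which follows in part from how they were found. None of the 6 exceeded 0.17 at 6 h, where DKK4 was at 0.64. The most opposed were CIPC (r = -0.911), ATIC (-0.876) and PHC1 (-0.849), which dropped to -0.278, -0.523 and -0.434 on deposited values.

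**Figure D5:**
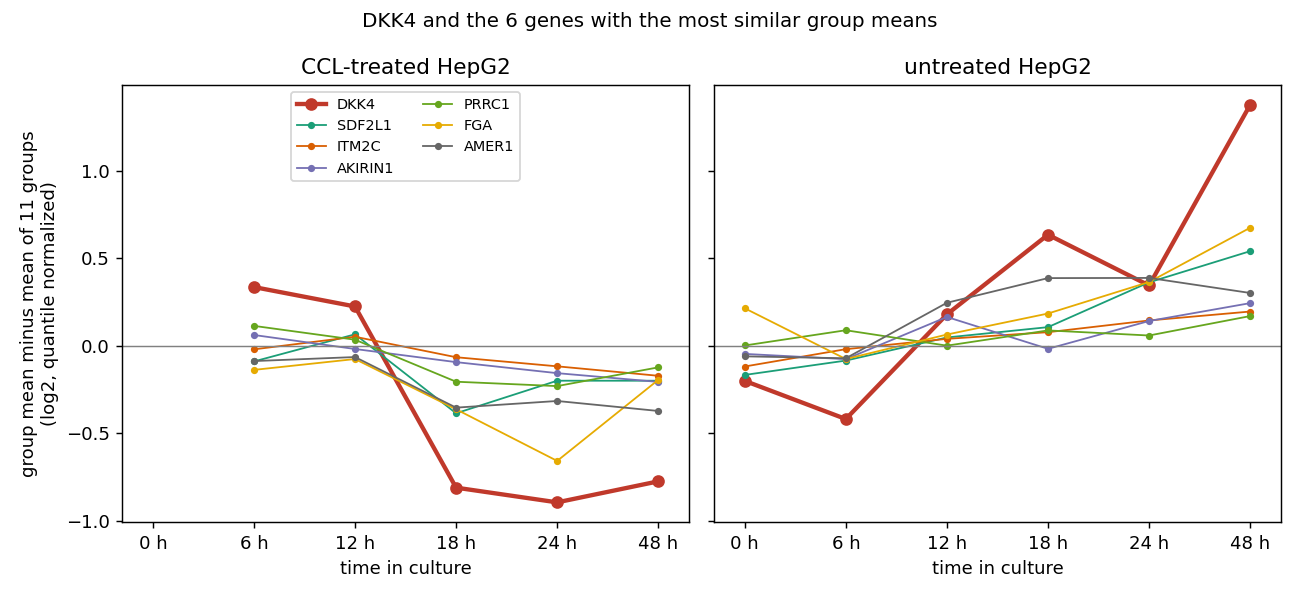
Group mean minus the mean of the 11 groups (log2 after quantile normalization, vertical axis) by time in culture, for CCL-treated cells on the left and untreated cells on the right, with DKK4 in thick red and the 6 genes of highest Pearson's r in thin lines. All 7 lines lie below 0 from 18 h on in CCL-treated cells, and DKK4 spans a wider range than any of the other 6.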

How the data were processed

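Biotinylated cRNA from total RNA of HepG2 was hybridized to 29 Affymetrix arrays, and samples were grouped by the arm and time in their labels. The authors deposited log2 values per probe set, and the submitters' processing notes name Affymetrix Expression Console 1.1 and RMA. Differing array medians show that the arrays were not all normalized together. The platform's probe table named 16098 probe sets, with symbols updated by gene ID, and the other 37519 were not used here. Each of 14884 genes was represented by its brightest probe set, and 6529 genes passed the filter (over log2 5 on 2 or more arrays).

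Group means of all 11 groups were fitted together in limma 3.58.1 (lmFit and eBayes, R 4.3.3). Two-sided p-values were adjusted over all 6529 genes by the Benjamini-Hochberg method, and a gene is called at an adjusted p under 0.05. They measure only the spread between these arrays, which may be technical. The model was tested on simulated data with independent errors and no shift between arrays, so that test does not cover the differing array medians. Alternatives were quantile normalization, centred array medians, other filters, the set number as a block, the compared arrays alone and leaving out each array. DKK4 and the gene lists were chosen with earlier results of these data known. Pathway genes were named where called or where their role bears on DKK4, and the genes of the plot by time and the comparisons of 48 h with 6 h within an arm were picked after the values were seen. Most WNT genes, CTNNB1 and the genes TCF7, TCF7L1 and TCF7L2 lacked a named probe set and are not analysed here. No sequence is printed.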

Additional observations from a re-analysis of the deposited data

Results flagged for a closer look

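The DKK4 difference at 48 h minus that at 6 h, -2.93 on the log2 scale, stands out because the arms exchanged their order. At 6 h all 3 CCL arrays lay above all 3 untreated arrays, and at 48 h both CCL arrays lay below all 3 untreated arrays. The first held for 6.23% of tested genes and the second for 29.5%, and the share showing both was not computed. DKK4 was chosen for this pattern, so the difference was not tested. Set 3, which gave the highest untreated DKK4 values at 24 h and 48 h, has no CCL array at these times. Without the untreated set 3 array of 48 h the DKK4 difference was -2.15 at 48 h and -2.79 for 48 h minus 6 h, and without that of 24 h it was -0.84 at 24 h. The differences within sets 1 and 2 at 48 h were -2.28 and -2.03.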

How the results depend on the processing

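DKK4 kept its direction at 6, 18, 24 and 48 h under every alternative run. At 18 h its difference of -0.94 was -1.45 after quantile normalization and -1.41 with array medians centred. Leaving out 1 array gave 0.48 to 0.76 at 6 h, -0.26 to 0.23 at 12 h (main value 0.01), -1.05 to -0.77 at 18 h, -1.70 to -0.84 at 24 h and -2.49 to -2.09 at 48 h, and -3.13 to -2.73 for 48 h minus 6 h. Set numbers did not establish a pairing: residuals of same-numbered arrays correlated above 0.1 in 9 of 12 pairs, and the own number correlated best in 7 of 12. With set as a replicate block DKK4 differed by 0.64, 0.01, -0.97, -1.28 and -2.27 at the 5 times. By limma, pathway calls at 6, 12, 18, 24 and 48 h (0, 1, 6, 2 and 3 of 42) became 2, 4, 7, 5 and 6 after quantile normalization and 3, 6, 9, 5 and 11 with the replicate block, and the 16 of the mean became 20 and 18. With the compared arrays alone they were 2, 9, 1, 0 and 0, and with no filter 10, 0 and 1 at 18, 24 and 48 h. Leaving out 1 array gave 0 to 1 at 12 h, 0 to 12 at 18 h, 0 to 4 at 24 h, 0 to 15 at 48 h, 14 to 20 for the mean and 0 to 6 for 48 h minus 6 h (6 without CCL 48 h set 2). Calls over all genes (20, 81, 815, 197 and 428) became 86, 146, 340, 459 and 799 after quantile normalization, and 108, 257, 1571, 525 and 903 with the block. The causes were not tested. Low signal limits DKK4, which passed log2 5 on 4 arrays only.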
